A study of Mus musculus with 12 samples.

Results

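mmu-miR-140-5p, mmu-miR-140-3p, mmu-miR-342-5p and mmu-miR-342-3p, written without mmu from here on, are the 5p and 3p arms of 2 hairpins and make up 4 of the 637 miRNA entries counted in exosomes of mouse ovarian granulosa cells. miR-140-5p and miR-342-5p were taken because the study named them as differing between the ferric citrate group and each other group, and the 3p arms were added as the other product of the same 2 hairpins, whatever their values. All 4 entries had at least 10 counts over the 12 libraries and were tested together with 543 others. Because the FAC values chose the 5p arms, their differences between FAC and any other group are given as a description without a test.

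The granulosa cells were kept for 24 h in DMEM/F12 free of exosomes and then for 48 h under 1 of 4 conditions, with 3 libraries in each. The CON group received none of the agents. In FAC, 100 μM ferric citrate was added as a source of iron. In DFO, the same ferric citrate was given along with 100 μM deferoxamine mesylate, which chelates iron. In VE, it was given along with 200 μM VITE (vitamin E), a lipid-soluble antioxidant. Neither agent was given without iron, so what it does alone cannot be read from these groups. The sources used here do not say whether the 3 libraries of a group came from separate cultures or animals, and the p-values measure only the spread between libraries. Only small RNAs were counted, and the genes that define a granulosa cell are not among them.

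An miRNA hairpin is cut by Drosha and Dicer into a duplex of its 5′ (5p) and 3′ (3p) strands, of which usually one is kept by an Argonaute protein and pairs with target mRNAs through its seed, the bases 2 to 8. miR-140 is best known from cartilage, where it is abundant and depends on the factor Sox9, and it lies in an intron of Wwp2, which encodes a ubiquitin ligase. miR-342 is best known from blood cells and lies in an intron of Evl, which encodes an actin regulator of the Ena/VASP family. An intronic miRNA may be made from the transcript of its host gene, so both arms of one hairpin start from one precursor.

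In the GENCODE annotation of GRCm38, the hairpin of miR-140 lay on the strand of Wwp2, in intron 16 of its transcript with 24 exons, and that of miR-342 on the strand of Evl, in intron 3 of its transcript with 14 exons. Neither overlapped an exon of the 4 and 6 protein-coding transcripts of these genes. The processing notes of the submitters name mm9, so no coordinates are given. Among the tested entries that could be placed, 233 of 473 came from hairpins that all lay inside a protein-coding gene on the same strand.

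The mature sequences are shown because the seeds set which other entries could be related to each arm. They are from RefSeq (GRCm38.p6), read 5′ to 3′, and the capitals mark the seed. Of the 4 arms, 3 matched an entry of that table.
miR-140-3p: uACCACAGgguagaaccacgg
miR-342-5p: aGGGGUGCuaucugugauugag
miR-342-3p: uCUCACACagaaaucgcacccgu
The 3 arms had lengths of 21, 22 and 23 bases, and no seed was shared among them. miR-140-3p and miR-342-3p began with U, as did 42.9% of the 471 tested entries with a sequence, and miR-342-5p began with A, as did 24.4%. Among the entries with a sequence in that table, only mmu-miR-497b had the seed of miR-140-3p. It was counted only in FAC replicate 1, with 44 counts, and was at 0 in the other 11 libraries. None of these entries shared the seed of either arm of miR-342, and entries without a sequence could not be searched.

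The hairpin of miR-342 shows how the arms lie in their precursor, with capitals for the 5p arm (bases 19 to 40) and then the 3p arm (bases 61 to 83).
Mir342 hairpin: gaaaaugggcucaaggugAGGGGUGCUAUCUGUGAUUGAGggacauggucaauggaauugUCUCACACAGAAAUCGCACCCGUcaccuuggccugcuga
The strands are cut from 1 molecule of 99 bases, and their counts below can therefore be set against each other within a library.

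Levels are given as CPM, an entry's counts per 1000000 miRNA counts of its library after TMM normalization, and as RPM as deposited, its reads per 1000000 of a larger library total. The difference matters because miRNA counts made up 2.0% to 5.0% of that total in the CON libraries, 21.6% to 30.4% in FAC, 5.53% to 19.9% in DFO and 9.20% to 14.6% in VE. CPM therefore compares an arm with the other miRNAs, and RPM compares it with the whole library. Both are shares of a library, so neither measures the amount of exosomes or of RNA in them. Whether a higher RPM comes from more miRNA or from less of the other RNA in a library cannot be told apart. The miRNA counts ranged from 452021 to 7565362 per library. A level of 3 counts, used as the floor of detection, was 0.351 CPM in FAC replicate 1 and 7.90 CPM in CON replicate 2. No molecular identifiers are described for these libraries, so reads may not be independent molecules, and floors and intervals cover counting error only.

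A value called the lowest mode serves as a second scale for low counts. It is the count, from 10 to 500, at which the smoothed distribution of a library's counts was highest. Counts under 10 were not searched, so a peak nearer to 1 read could not have been found. The lowest mode ranged over the 12 libraries from 20.3 to 198 counts. The counts of the arms are set against it below. This scale was added after the counts had been seen, and what gives rise to the peak was not tested.

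miR-140-5p was counted in all 3 FAC libraries, at 0 in every CON and DFO library, and at 3 counts in total in VE. FAC replicates 1 to 3 held 137, 36 and 167 counts, and the VE replicates 1, 2 and 0. In CPM these were 16.0, 4.81 and 33.9 in FAC and 0.452, 0.729 and 0 in VE. All 3 FAC libraries thus lay above the 9 others, the pattern by which the arm had been chosen, which 2.01% of the 547 tested entries also showed. The FAC level of 18.3 ± 14.7 CPM (SD, n = 3) was 3.63 times the mean floor of 3 counts per library in CON and 14.3 times that in DFO. These ratios rested on FAC replicate 3, without which they were 2.08 and 8.18, and FAC replicate 2 at 4.81 CPM lay below the mean CON floor of 5.02 CPM. The arm passed the filter on low counts through FAC alone, which held 340 of its 343 counts. Against VE the ratio of the pooled counts, 340 to 3 and scaled to library size, was 44.0. It pools FAC libraries that ran from 4.81 to 33.9 CPM, and it describes values by which the arm had been chosen.

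A zero in CON corresponds to few missing counts at this depth. At the lowest FAC level, 4.81 CPM, CON replicates 1 to 3 would have held 5.87, 1.83 and 3.06 counts, and at the FAC mean 22.3, 6.93 and 11.6 counts. These numbers lie below the lowest modes of the same libraries, at 68.7, 117 and 198 counts. In 5 of the 6 DFO and VE libraries the FAC mean also corresponds to fewer counts than the lowest mode, namely 53.0 and 24.3 in DFO replicates 1 and 3 and 40.4, 50.1 and 58.1 in the VE replicates. DFO replicate 2 was the exception, at 102 counts against a lowest mode of 91.2. The counts in FAC were themselves small on this scale, at 2.34, 1.78 and 0.847 times the lowest modes of replicates 1 to 3. In RPM the FAC values were 5.51, 1.49 and 6.81, and the highest value elsewhere was 0.0824.

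**Figure D1:**
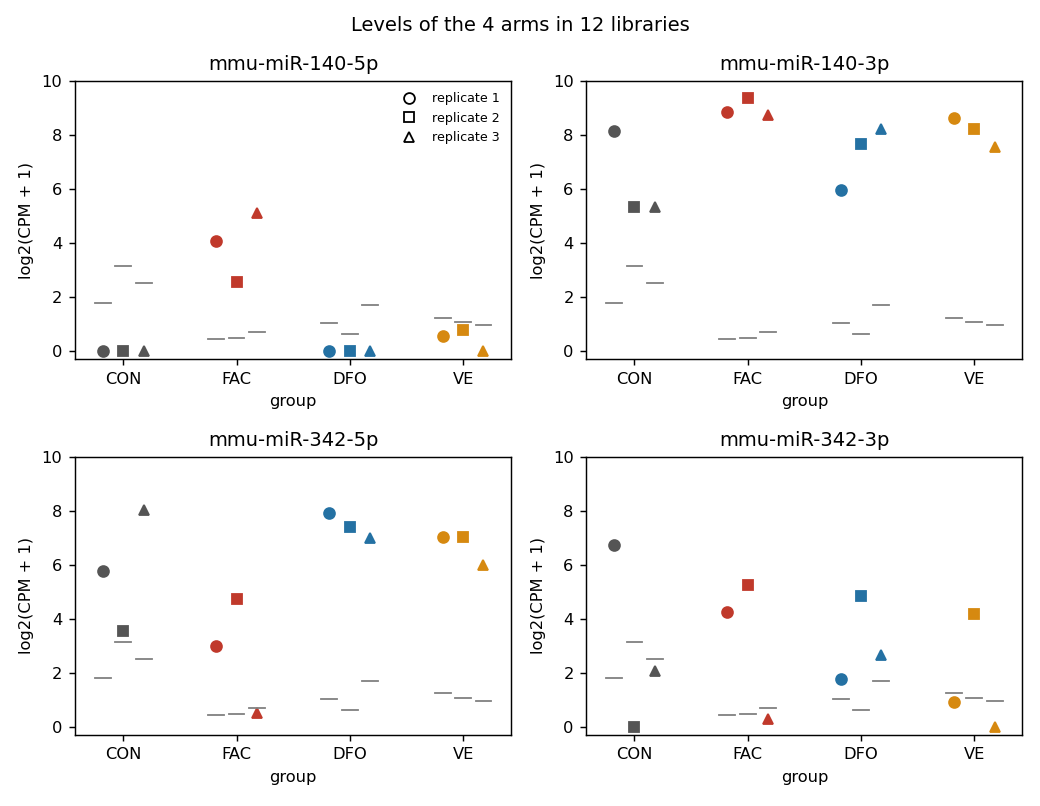
Levels of the 4 arms as log2(CPM + 1) by group, with 1 symbol per library (circle, square and triangle for replicates 1 to 3) and a grey dash at the floor of 3 counts in that library. miR-140-3p was above its floor in all 12 libraries, miR-140-5p in the 3 FAC libraries only, and the arms of miR-342 spread widely within CON and FAC.

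miR-140-3p was the abundant arm of its hairpin and was counted in all 12 libraries. The CON replicates held 280, 39.5 and 39.3 CPM, the FAC replicates 462, 654 and 425, the DFO replicates 61.3, 205 and 294, and the VE replicates 399, 297 and 185. As with the 5p arm, which was chosen for it, the 3 FAC libraries were the highest of the 12. FAC was thus without overlap with CON, DFO and VE, as were 13.3%, 16.6% and 14.6% of the tested entries, although the nearest other library, VE replicate 1, was close to FAC replicate 3. CON replicate 1 lay apart from the other CON libraries and within the range of the DFO and VE libraries. Group means were 120 ± 139, 513 ± 123, 187 ± 117 and 294 ± 107 CPM in CON, FAC, DFO and VE (SD, n = 3). CON overlapped DFO and VE, whereas 6.03% and 13.0% of the tested entries did not overlap in these comparisons.

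The 3p arm had not been chosen by its values and was tested, although it shares its hairpin with an arm that had been and is not independent of it. The FAC level exceeded the CON level by 2.10 on the log2 scale (standard error 1.04), with an adjusted p = 0.497 over all tested entries in edgeR's quasi-likelihood test. It passed the study's threshold, 1.5-fold at an unadjusted p below 0.05, which 9.51% of the 547 tested entries passed in either direction and 2.38% with higher values in FAC. It did not pass after adjustment, which 0.183% of the entries did in this comparison, and 0.914%, 0.366%, 0.548% and 2.01% in FAC against DFO, FAC against VE, DFO against CON and VE against CON. None of the CPM differences tested for the 4 arms passed it. Entries with a mean of at least 100 CPM, 129 in all, had a median log2 fold change of -0.18 in this comparison, and all 547 had 1.38, which includes entries at 0 in CON. The call rested on single libraries. The difference no longer passed without CON replicate 2 (1.85), CON replicate 3 (1.85), FAC replicate 1 (2.15) or FAC replicate 2 (1.97), with adjusted p-values from 0.624 to 0.738. Without FAC replicate 3 it was 2.24, and without CON replicate 1 it was 3.70 (adjusted p = 0.0903 in edgeR), and it passed in both.

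Against DFO, miR-140-3p in FAC was higher by 1.46 on the log2 scale (standard error 1.02, adjusted p = 0.458 in edgeR), and against VE by 0.81 (standard error 1.00, adjusted p = 0.714). Neither passed the threshold, which 12.2% and 9.32% of the tested entries did. The DFO and VE groups were 0.64 (standard error 1.00, adjusted p = 0.932) and 1.29 (standard error 1.01, adjusted p = 0.630) above CON, where 7.68% and 10.4% of entries were called. Without CON replicate 1 the values for DFO and VE were 2.24 and 2.90, and the second passed the threshold.

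Relative to the whole library, miR-140-3p stood further apart. FAC replicates 1 to 3 were at 159, 203 and 85.3 RPM, the DFO replicates at 7.30, 46.5 and 15.8, the VE replicates at 36.5, 33.6 and 24.3, and the CON replicates at 14.1, 0.663 and 1.01. All FAC libraries thus exceeded all CON libraries, and 31.4% of the tested entries were likewise without overlap on this scale. FAC was also without overlap with DFO and VE, as were 16.6% and 24.5% of the entries. In limma on log2(RPM + 1) FAC exceeded CON by 5.25, with an adjusted p of 0.00246. Over the settings that left out no FAC or CON library, among them the fit of these 2 groups alone, the adjusted p of this difference ran from 0.00189 to 0.600. On the log2(RPM + 1) scale all 195 entries past the threshold were higher in FAC, where the miRNA share of the library was also higher, and the part of that share in the value was not tested. On this scale miR-140-3p differed by 2.91 (FAC against DFO), 2.14 (FAC against VE), 2.34 (DFO against CON) and 3.11 (VE against CON). Each passed the threshold at its unadjusted p, as did 22.7%, 20.7%, 16.8% and 18.8% of the tested entries. The adjusted p in limma was 0.0750, 0.202, 0.174 and 0.0561 in this order.

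The 5p arm stayed the minor product of the miR-140 hairpin throughout. It made up 3.35% (exact 95% interval 2.82 to 3.95), 0.730% (0.512 to 1.01) and 7.40% (6.35 to 8.55) of the counts of both arms in FAC replicates 1 to 3. The 3 intervals did not meet, but they take each read as an independent molecule, which is not known for these libraries. In CON replicate 1 the share was 0 of 342 counts, with an exact 95% interval up to 1.07%. In CON replicates 2 and 3 it was 0 of 15 and 0 of 25, with limits of 21.8% and 13.7%. The limits of CON replicates 2 and 3 lie above all 3 FAC shares, so a difference from these libraries was not detectable at this depth. The DFO libraries, all with a share of 0, had exact limits of 2.05%, 0.322% and 0.937%. Only the limit of replicate 2 lies below the intervals of all 3 FAC libraries. In the VE libraries the shares were 0.113% (0.00286 to 0.629), 0.244% (0.0296 to 0.880) and 0 of 589 (up to 0.624%). All 3 of these intervals reach into that of FAC replicate 2.

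**Figure D2:**
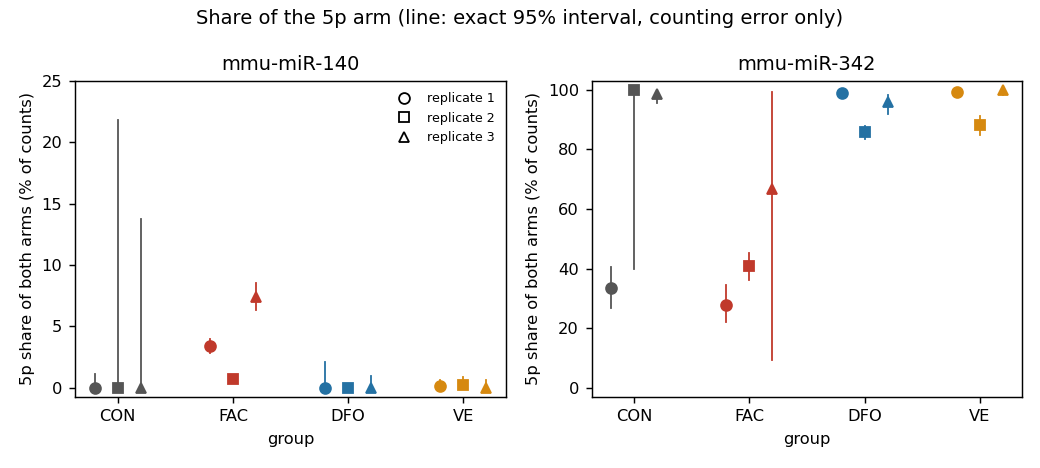
Share of the 5p arm in the counts of both arms of a hairpin, in percent, by group and library, with vertical lines for exact 95% intervals that cover counting error only. The miR-140 share was 7.40% or less in every library, whereas the miR-342 share ran from 27.9% in FAC replicate 1 to 100% in CON replicate 2 and VE replicate 3.

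miR-342-5p had its lowest group mean in FAC and its highest in DFO. The FAC replicates held 60, 192 and 2 counts, which were 7.03, 25.6 and 0.406 CPM, and the last of these lies under its floor of 0.609 CPM. The CON replicates were at 53.2, 10.5 and 261 CPM, the DFO replicates at 240, 169 and 128, and the VE replicates at 129, 129 and 61.9. FAC lay below all DFO and all VE libraries and overlapped CON, where replicate 2 rested on 4 counts. Of the tested entries, 16.6% and 14.6% were likewise without overlap when FAC was set against DFO and VE. Group means were 108 ± 134, 11 ± 13.1, 179 ± 56.8 and 107 ± 38.8 CPM in CON, FAC, DFO and VE (SD, n = 3).

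The arm had been chosen for these differences from FAC, and their sizes are given without a test. The fitted log2 fold change of FAC was -3.29 against CON, -4.01 against DFO and -3.27 against VE, with standard errors of 1.46, 1.51 and 1.46. These errors do not allow for the choice of the arm, so a fold change set against its error is no test here. Without CON replicate 3, which held 166 of the 235 counts of that group, the value against CON was -1.29, and over all libraries left out in turn it ranged from -4.68 to -1.29. Against DFO and VE the same ranges were -5.52 to -3.53 and -4.61 to -2.50.

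Relative to the whole library, the FAC and CON means of miR-342-5p differed by less than their spread, at 3.49 ± 4.05 and 3.19 ± 3.30 RPM (SD, n = 3). The DFO group was at 24.6 ± 16.1 RPM and the VE group at 11.5 ± 3.24 RPM (SD, n = 3). By replicate, the RPM values were 2.68, 0.177 and 6.72 in CON, 2.41, 7.96 and 0.0816 in FAC, 28.6, 38.3 and 6.85 in DFO, and 11.8, 14.6 and 8.13 in VE. All DFO and all VE libraries were thus above all CON libraries, as 12.8% and 23.2% of the tested entries also were without overlap, either higher or lower. All VE libraries were also above the FAC libraries, by a small margin for FAC replicate 2 and as 24.5% of the tested entries were without overlap, and DFO replicate 3 fell within the range of FAC. The lower FAC mean against CON was thus seen in CPM and not in RPM.

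**Figure D3:**
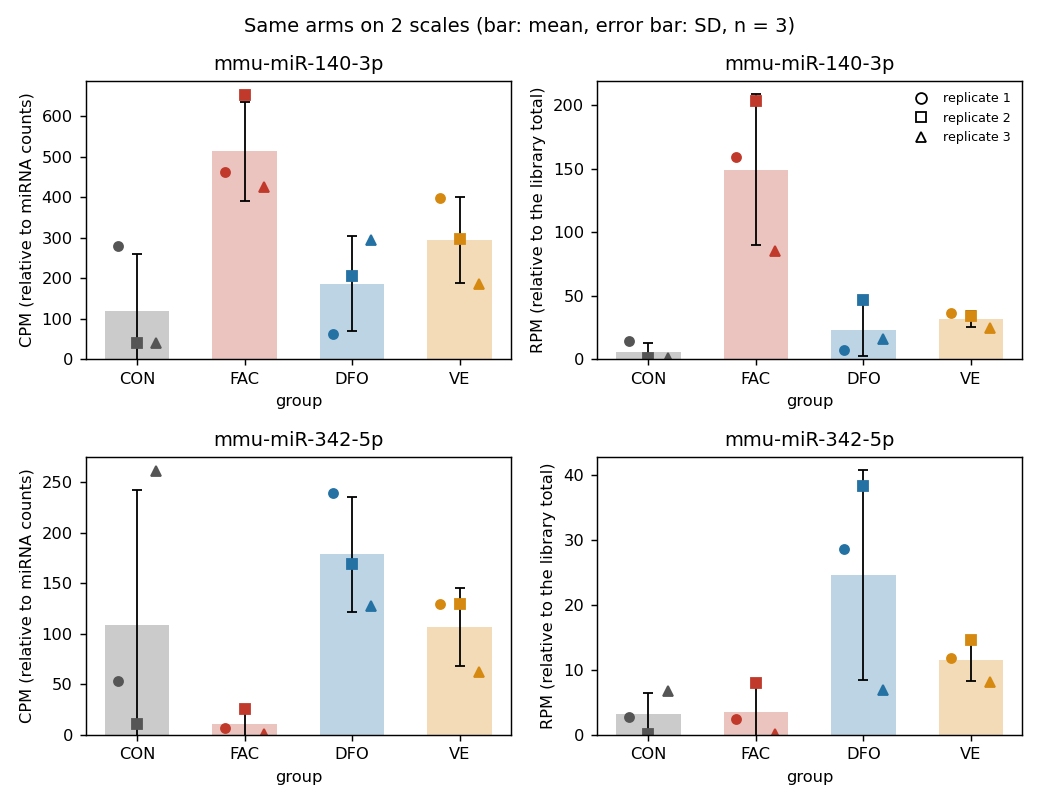
miR-140-3p (top) and miR-342-5p (bottom) in CPM, relative to miRNA counts, and in RPM, relative to the library total, with bars for the group mean, error bars for the SD (n = 3, drawn from 0 upwards) and symbols for the libraries. miR-140-3p was highest in FAC on both scales, while the FAC mean of miR-342-5p was 11 CPM against 108 in CON but 3.49 RPM against 3.19.

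The comparisons of DFO and VE with CON were not used to choose miR-342-5p and were tested. DFO differed from CON by 0.72 on the log2 scale (standard error 1.35, adjusted p = 0.953 in edgeR), and VE differed from it by -0.02 (standard error 1.34, adjusted p = 1). In CPM neither differed beyond the spread between libraries, and without CON replicate 3 they were 2.64 and 1.73. On log2(RPM + 1) in limma the differences from CON were 2.70 in DFO (adjusted p = 0.147) and 1.92 in VE (adjusted p = 0.284), and the adjusted p over the settings that kept all libraries ran up to 1 in both comparisons. At its unadjusted p the DFO difference passed the threshold on this scale, as did 16.8% of the tested entries, and the VE difference did not.

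miR-342-3p was counted in 10 of the 12 libraries and varied widely within every group. The CON replicates were at 106, 0 and 3.14 CPM, the FAC replicates at 18.2, 37.3 and 0.203, the DFO replicates at 2.41, 27.8 and 5.25, and the VE replicates at 0.903, 17.1 and 0. Every group had 1 or 2 libraries with at least 47 counts and 1 or 2 with at most 7, and all groups overlapped. In 4 libraries the count was at or above the lowest mode, in 1 it was 0.537 times the mode, and in the other 7 it was 0 or under 0.1 times the mode. Group means were 36.3 ± 60.1, 18.5 ± 18.5, 11.8 ± 13.9 and 6.01 ± 9.64 CPM in CON, FAC, DFO and VE (SD, n = 3).

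No difference of miR-342-3p passed the threshold. In edgeR the fitted log2 difference of FAC was -0.98 from CON (standard error 2.46, adjusted p = 0.856), 0.64 from DFO (standard error 2.44, adjusted p = 0.920) and 1.62 from VE (standard error 2.50, adjusted p = 0.791). That of DFO from CON was -1.62 (standard error 2.50, adjusted p = 0.932) and that of VE from CON -2.59 (standard error 2.58, adjusted p = 0.690). The errors of this arm were thus larger than those of miR-140-3p and miR-342-5p in every comparison. Without CON replicate 1, the values against CON turned to 3.46 in FAC, 2.81 in DFO and 1.84 in VE.

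**Figure D4:**
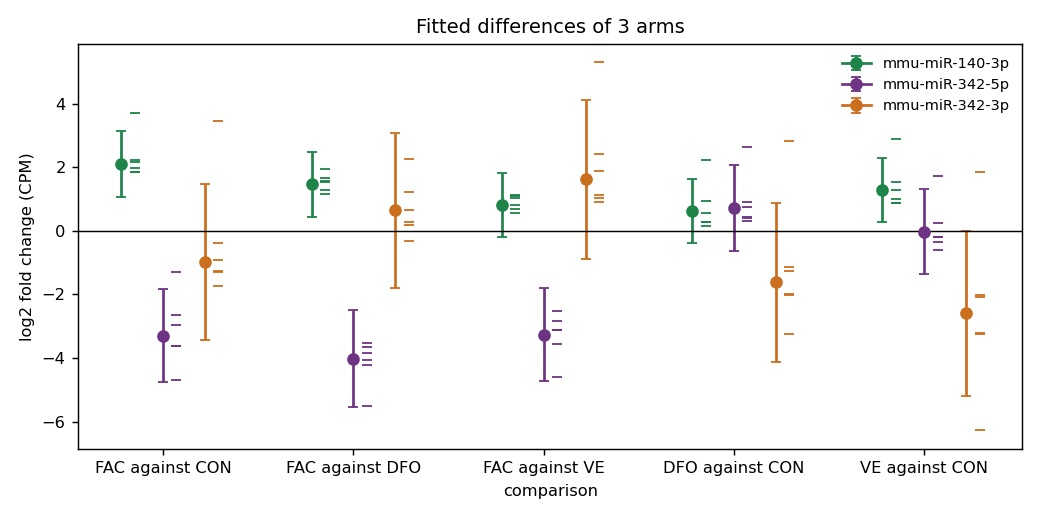
Fitted log2 fold changes in CPM of 3 arms in the 5 comparisons, with vertical bars for 1 standard error and short dashes for the fits that leave out 1 library each. miR-140-3p stayed above 0 in every fit shown, miR-342-5p stayed below 0 in the 3 comparisons with FAC, which were used to choose it, and the dashes of miR-342-3p lay on both sides of 0 in 4 comparisons. miR-140-5p is not drawn, since CON and DFO held 0 counts.

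The arm with more counts in the miR-342 hairpin changed between libraries. The 5p share was 27.9% (exact 95% interval 22.02 to 34.4) in FAC replicate 1 and 40.8% (36.3 to 45.4) in FAC replicate 2, where the 3p arm prevailed, and FAC replicate 3 held only 3 counts of both arms. In DFO it was 99.0% (98.0 to 99.6), 85.9% (83.7 to 87.9) and 96% (92.0 to 98.4), and in VE 99.3% (97.5 to 99.9), 88.3% (84.7 to 91.3) and 100% (98.1 to 100). CON held both states, with 33.5% (26.9 to 40.6) in replicate 1, 98.8% (95.8 to 99.9) in replicate 3 and 4 counts, all 5p, in replicate 2. The 5p arm thus prevailed in all 6 libraries that received iron with DFO or VE, and the 3p arm in the 2 FAC libraries with enough counts and in 1 CON library. Since miR-342-5p had been chosen for being lower in FAC, the direction of this difference in share is in part set by the choice, and it is given as a description.

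Other hairpins also changed their leading arm. Of 115 hairpins with both arms as entries and at least 10 counts of both together in at least 2 libraries, 41 (35.7%) had libraries on both sides of 50%. The range of the 5p share over these libraries was 72.1 percentage points for miR-342 and 7.40 for miR-140, and the median of the 115 hairpins was 25.5. Among the 70 hairpins with at least 8 such libraries, 18 (25.7%) had libraries on both sides of 50% and the median range was 10.7.

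Correlations between the arms of a hairpin are given as a description. Over the 12 libraries, log2 CPM of miR-140-5p and miR-140-3p correlated with r = 0.59 (Spearman's rho 0.87), and that of miR-342-5p and miR-342-3p with r = 0.23 (rho 0.05). The median r over 104 hairpins with both arms tested was 0.16. The libraries are shared between these values, and miR-140-5p was at 0 in 7 of them, so that its r reflects mainly the 3 FAC libraries by which it had been chosen. In the comparison of FAC with CON, the fitted changes of both arms of miR-342 were negative, and the arms had opposite signs in 38.3% of 107 hairpins. Against DFO and VE the fitted values were negative for the 5p arm and positive for the 3p arm, as the arms of 37.4% and 38.3% of these hairpins also had opposite signs. The 3p value against DFO turned to -0.31 without FAC replicate 2 and to -1.08 with the replicate number as a block, and the difference between the arms was not tested.

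**Figure D5:**
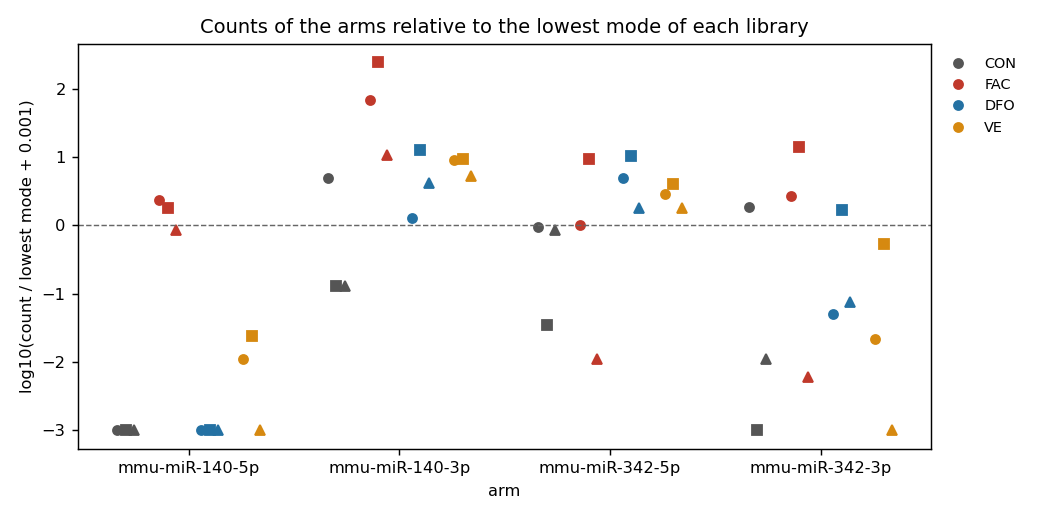
Counts of the 4 arms divided by the lowest mode of their library, as log10(ratio + 0.001), with colours for groups, circles, squares and triangles for replicates 1 to 3, and a dashed line at a ratio of 1. miR-140-3p lay above the line in 10 libraries, up to 242 times the mode in FAC replicate 2, and miR-342-3p lay at or above it in 4 libraries and at 0 or under 0.1 in 7.

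The entries closest in pattern were looked up by the correlation of log2 CPM over the 12 libraries. For miR-140-5p they were mmu-miR-369-5p (r = 0.96), mmu-miR-23a-5p (r = 0.83) and mmu-miR-212-5p (r = 0.80). mmu-miR-369-5p, which the study had named for the same pattern, was at 14.4 CPM in FAC, at 0 in CON and DFO and at 0.151 in VE, and it therefore shared its zeros with miR-140-5p. For miR-140-3p they were mmu-miR-34c-3p, mmu-miR-23a-3p and mmu-miR-532-5p, with r of 0.90, 0.90 and 0.88. mmu-miR-23a-3p, another entry named by the study, had means of 239, 1360, 216 and 521 CPM in CON, FAC, DFO and VE, and mmu-miR-532-5p, which is itself intronic and lies in Clcn5, had means of 812, 1769, 754 and 1219. No entry followed miR-342-5p as closely, and the nearest were mmu-miR-92b-3p (r = 0.64), mmu-miR-5128 (r = 0.62), also named by the study, and mmu-miR-1943-5p (r = 0.60). For miR-342-3p they were mmu-miR-181a-1-3p (r = 0.94), the joint entry of mmu-let-7a-1-3p and mmu-let-7c-2-3p (r = 0.87) and mmu-miR-143-5p (r = 0.82).

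Other intronic miRNAs did not move one way. Of 58 tested arms of miRNAs known from introns of protein-coding genes, 5 were higher (8.62%) and 6 lower (10.3%) in FAC than in CON at the threshold, beside 2.38% and 7.13% of all tested entries, with a median log2 fold change of 1.51 beside 1.38 over all entries. Against DFO, 4 were higher and 4 lower in FAC, beside 4.75% and 7.5% of all entries, and against VE 3 and 3, beside 4.39% and 4.94%. None of those against CON or DFO had an adjusted p below 0.05 in edgeR, and 1 of those against VE did, beside 0.366% of all entries. mmu-miR-423-5p of Nsrp1 was lower in FAC than in CON (log2 fold change -1.09, standard error 0.36, adjusted p = 0.101 in edgeR), and mmu-miR-744-5p of Map2k4 was as well (-2.08, standard error 0.75, adjusted p = 0.148). The arms of miR-23b, a miRNA of Aopep, moved apart, at 3.33 for mmu-miR-23b-3p and -5.56 for mmu-miR-23b-5p (adjusted p = 0.103 in edgeR). The study had named mmu-miR-23b-3p for being higher in FAC, so its value is a description without a test. It is also among the listed arms counted above as higher in FAC than in CON and DFO. By position in the annotation rather than by the list, and without the arms of miR-140 and miR-342, 4 of 230 entries within protein-coding genes were higher and 15 lower in FAC than in CON, and 7 and 18 of the 233 entries outside them.

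miRNAs that mark other cells or are linked to them, among them those in which miR-140 and miR-342 are best known, ranged from 0 to very abundant. Of 7 tested arms of cartilage-linked miRNAs, 0 passed the threshold between FAC and CON, which 9.51% of all tested entries passed and 2.38% with higher values in FAC, so that counts of 0 or 1 in lists this short are near that background. The cartilage list also held mmu-miR-29a-3p and mmu-miR-26a-5p, with means of 298 and 612 CPM in CON. Between FAC and DFO 1 of its arms passed, mmu-miR-29a-3p, which was higher in FAC, as were 4.75% of all tested entries. mmu-miR-455-5p, a miRNA of the cartilage collagen gene Col27a1, was at 0 in CON and in FAC replicates 2 and 3 and at 3.98 CPM in FAC replicate 1. Of 7 tested arms of blood and immune miRNAs, 1 was higher in FAC, mmu-miR-146a-5p (log2 fold change 3.74, adjusted p = 0.161 in edgeR), and mmu-miR-150-5p, a lymphocyte miRNA, had means of 185 ± 153 and 42.7 ± 49.1 CPM in CON and FAC (SD, n = 3) without passing. The summed level of the 9 blood and immune entries was 307 to 1129 CPM in CON, 690 to 867 in FAC, 246 to 1130 in DFO and 752 to 4182 in VE. The neural marker mmu-miR-9-5p was at 0 in CON and FAC, at 0, 2.33 and 149 CPM in DFO replicates 1 to 3 and at 18.1, 8.02 and 8.49 CPM in the VE replicates. mmu-miR-122-5p, the marker of liver, was abundant in all groups and had means of 119757 ± 11565 CPM in CON and 80763 ± 48239 in FAC (SD, n = 3). The 11 granulosa-linked entries summed to 2559 to 7101 CPM in CON, 6711 to 14258 in FAC, 2652 to 7292 in DFO and 2905 to 9525 in VE. Of their 10 tested arms, 3 were higher in FAC than in DFO and 0 than in VE, beside 4.75% and 4.39% of all tested entries. Between FAC and CON, 1 was higher in FAC, mmu-miR-182-5p. Of the arms of endothelial, stromal, epithelial, early embryo and liver miRNAs 0 passed in that comparison, the 7 epithelial entries being at 0 in VE, and of the striated muscle miRNAs mmu-miR-1a-3p was lower in FAC. The part of other cells in the levels of the 4 arms was not tested.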

How the data were processed

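Exosomal small RNA of 12 libraries was analysed, with groups and replicate numbers from the library titles and doses from the study's design. Per the labels, RNA was extracted with the exoEasy Maxi kit and sequenced by Illumina in reads of 15 to 41 bp. The authors deposited raw counts for 637 miRNA entries per library, 5 of which join 2 miRNAs. They also deposited RPM values, named TPM, for which count divided by value gave 1 total per library, from 22631206 to 24845945. The submitters' processing notes name mm9. The aligner, the miRNA database and the handling of multiply matching reads are not given in the sources used here.

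The counts were tested with edgeR 4.0.16 (R 4.3.3) by the quasi-likelihood method with TMM factors, in 1 fit of the 4 groups over 547 entries with at least 10 counts in all, with Benjamini-Hochberg adjustment. A standard error is the fitted log2 fold change divided by the root of the test's F. The common coefficient of variation between replicates was 1.57. The scripts were tested on simulated counts. Arm shares have exact (Clopper-Pearson) 95% intervals from SciPy 1.17.1. The lowest mode used a bandwidth of 0.18 on the log2 scale. Likeness was Pearson's r on log2 CPM with a prior count of 2. The alternatives were DESeq2 1.42.0, limma 3.58.1 on RPM, RLE factors, total miRNA counts, library read totals, other filters, the replicate number as a block, fits of 2 groups and fits without each library.

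The named entries are the 4 arms, the 3 entries most alike to each, entries that share a seed, and, from each marker or host list, up to 4 entries with the smallest p between FAC and CON. The arms and the lists were chosen with earlier results of these data known. Of 66 pairs of libraries, the least different had a chi-square of 102 per degree of freedom, so no library was taken for a repeat of another.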

Additional observations from a re-analysis of the deposited data

How the results depend on the processing

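Of 240 refits of the log2 fold changes of miR-140-3p and both arms of miR-342, 200 kept their direction and their side of the threshold or moved by less than the spread between libraries, and 18 turned their direction. Another 12 refits by setting and 1 with a library left out passed the threshold where the main fit had not. All of those by setting were scaled to the library total. A kept side does not bound the size, as miR-140-3p in FAC against CON reached 5.93 in limma on log2(RPM + 0.1). The ratio of miR-140-5p to the floor without FAC replicate 3 was added after seeing the data. The fitted change of miR-342-5p between FAC and CON was 0.13 with library read totals and -0.0047 and -0.17 in limma on log2(RPM + 1) and log2(RPM + 0.1). For miR-342-3p between FAC and CON it was 1.72, 1.26 and 2.24 under these 3 settings, and for DFO against CON 0.35, 0.27 and 1.09. For VE against CON, miR-342-5p was at 0.022 with total miRNA counts and at 1.85, 1.92 and 2.70 under the same 3 settings. These 3 settings scale to the library total rather than to the miRNA counts. With single libraries left out, miR-342-3p ranged from -1.75 to 3.46 (FAC against CON), -0.31 to 2.27 (FAC against DFO), -3.25 to 2.81 (DFO against CON) and -6.27 to 1.84 (VE against CON), and miR-342-5p from -0.61 to 1.73 (VE against CON). miR-140-3p between FAC and CON lost its call with filterByExpr (1.83, adjusted p = 0.410 in edgeR) and in the fit of the 2 groups alone (2.09, adjusted p = 0.600).

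The share of tested entries past the threshold was 9.51% (FAC against CON), 12.2% (FAC against DFO), 9.32% (FAC against VE), 7.68% (DFO against CON) and 10.4% (VE against CON). With single libraries left out it ranged from 6.42% to 11.6%, 7.98% to 12.7%, 4.86% to 11.2%, 5.02% to 7.37% and 5.90% to 9.67% in this order. With library read totals it was 29.1% (FAC against CON), 14.8% (FAC against VE), 17.0% (DFO against CON) and 21.6% (VE against CON). In limma on log2(RPM + 1) it was 35.6%, 22.7%, 20.7%, 16.8% and 18.8%, and on log2(RPM + 0.1) 37.1%, 23.2%, 17.7%, 13.3% and 16.8%, over the 5 comparisons. It was 6.91% for DFO against CON in the fit of 2 groups, 25 of 362 entries, and 11.5% for VE against CON with filterByExpr, 36 of 312 entries. DESeq2 tested 407 entries, of which 17.7%, 20.9%, 14.7%, 12.5% and 16.0% passed in the 5 comparisons, and with filterByExpr 18.3% passed in FAC against DFO. Of the calls in FAC against CON, 13 of 52 were higher in FAC, 23 of 52 with total miRNA counts, 32 of 72 with DESeq2 and 159 of 159 with library read totals. In FAC against VE these were 24 of 51, 30 of 49, 46 of 60 and 74 of 81. In FAC against DFO they were 26 of 67, 45 of 85 with DESeq2 and 67 of 75 with library read totals. Calls higher in DFO than CON were 15 of 42, 27 of 51 with DESeq2 and 90 of 93 with library read totals. Calls higher in VE than CON were 18 of 57 and 10 of 58 with RLE factors, and 105 of 118 with library read totals. With the replicate number as a block, the share was 5.85% (FAC against VE), 4.20% (DFO against CON) and 6.58% (VE against CON), and the fitted change of miR-342-3p between FAC and DFO was -1.08. The block changed no call of miR-140-3p or miR-342-3p, nor of miR-342-5p where it was tested. Deviations of same-numbered libraries from their group means had a mean correlation of 0.00421 over 18 pairs, and 4 of 12 libraries correlated best with one of their own number, so the numbers were not taken as pairs. By Spearman's rho, 1, 0, 1 and 3 of the 3 entries most alike to miR-140-5p, miR-140-3p, miR-342-5p and miR-342-3p stayed among the first 3. The fit of 2 groups gave no value of miR-140-5p in DFO against CON or VE against CON. Precision is limited by 3 libraries per group and by the low counts of 3 of the 4 arms.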
